A study of Mus musculus with 4 samples.

Results

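Brain endothelial cells, the lining of the blood vessels that grow into the cortex, were followed through 10 of their genes: Cldn5, Pecam1, Kdr, Flt1, Tie1, Tek, Mfsd2a, Esam, Emcn and Eng. The genes were taken as a fixed list by symbol, and all 10 were found once each among the 27293 genes of the count table. RNA-seq libraries had been made at embryonic day 13 (E13) from telencephalic tissue of C57BL/6 mice, 2 from embryos with the genotype WT and 2 from STINGf/f;Nestin-Cre embryos, called cKO here. By design, Cre recombinase driven by the Nestin promoter excises floxed STING sequence from neural progenitors of the cKO. That lineage does not give rise to endothelium. The labels do not say whether a library came from 1 embryo or from several. Where the 2 libraries of a group are not from separate embryos, a p-value measures technical spread only.

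Vessels enter the embryonic telencephalon from a plexus on its surface and branch towards the ventricle. Their growth is driven by vascular endothelial growth factor (VEGF), which neural progenitors release, and vessel maturation by angiopoietins. As they mature, brain endothelial cells close their junctions and restrict vesicle traffic, which together form the blood-brain barrier. In bulk libraries of whole tissue such as these, fewer endothelial cells and less RNA per endothelial cell cannot be told apart.

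Total counts ran from 17209654 to 18533391 per library. Tmem173, the gene of STING, was read 20 times in WT 1, 19 times in WT 2, 18 times in cKO 1 and 22 times in cKO 2. These gene-level counts do not separate the genotypes, which were therefore taken from the labels. Of the 4 libraries, 3 carried a feature of their own. WT 1 stood apart by its reads of meningeal genes, given with the other cell types. The title of WT 2 reads nes where that of WT 1 reads wt, and the labels do not explain the former. It also had 0 reads of 4 genes of the Y chromosome (Kdm5d, Uty, Ddx3y and Eif2s3y), against 1848 to 3002 in the others. WT 1 and WT 2 were thus not made from the same embryo, and the difference between them can include one of sex. In cKO 2, long genes had fewer and short genes more reads than elsewhere. Markers of cortical progenitors summed to between 2334 and 2578 CPM (reads scaled to the size of the library) and those of neurons to between 5789 and 6791 CPM, so the labelled tissue was matched by abundant neural transcripts in every library.

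RefSeq promoter sequences (GRCm38.p6) were matched for 8 of the 10 genes. Those for Pecam1 and Esam were not matched. Up to 250 bases before the start of transcription are shown for 5 genes, chosen because 3 of them (Kdr, Tek and Flt1) had lower mean counts in cKO and 2 (Cldn5 and Mfsd2a) had nearly equal ones. The capitals mark CAGGAA or CCGGAA on either strand, each a form of the ETS factor motif. ETS factors such as Erg and Fli1 are known regulators of endothelial genes. GGAA with other letters before it, as in the windows of Flt1 and Mfsd2a, is not marked.
Kdr (chr5:75978459-75978705, minus strand): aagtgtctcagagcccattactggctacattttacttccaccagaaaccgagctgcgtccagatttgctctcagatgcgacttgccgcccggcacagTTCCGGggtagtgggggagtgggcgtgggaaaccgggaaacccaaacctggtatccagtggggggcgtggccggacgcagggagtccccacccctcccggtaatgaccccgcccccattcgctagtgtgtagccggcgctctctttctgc
Tek (chr4:94739039-94739288, plus strand): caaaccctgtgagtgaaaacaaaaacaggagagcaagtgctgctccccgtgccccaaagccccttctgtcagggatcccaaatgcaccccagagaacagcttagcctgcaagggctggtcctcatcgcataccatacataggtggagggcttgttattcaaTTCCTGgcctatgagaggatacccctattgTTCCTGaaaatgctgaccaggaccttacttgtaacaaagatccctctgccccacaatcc
Flt1 (chr5:147726012-147726261, minus strand): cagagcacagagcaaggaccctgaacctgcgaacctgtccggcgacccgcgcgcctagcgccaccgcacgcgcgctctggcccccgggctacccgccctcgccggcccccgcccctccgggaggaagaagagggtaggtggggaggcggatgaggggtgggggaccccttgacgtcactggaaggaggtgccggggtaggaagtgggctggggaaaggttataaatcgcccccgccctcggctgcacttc
Cldn5 (chr16:18776597-18776846, plus strand): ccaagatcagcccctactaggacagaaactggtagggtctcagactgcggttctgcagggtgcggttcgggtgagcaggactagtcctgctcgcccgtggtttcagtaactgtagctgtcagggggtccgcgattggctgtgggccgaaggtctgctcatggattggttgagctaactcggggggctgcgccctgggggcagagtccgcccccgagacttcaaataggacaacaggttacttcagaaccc
Mfsd2a (chr4:122961189-122961438, minus strand): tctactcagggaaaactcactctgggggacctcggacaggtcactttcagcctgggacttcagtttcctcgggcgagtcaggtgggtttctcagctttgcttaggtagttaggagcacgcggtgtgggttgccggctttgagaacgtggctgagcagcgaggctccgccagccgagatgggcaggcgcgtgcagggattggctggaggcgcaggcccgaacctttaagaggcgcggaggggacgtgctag

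In whole windows of 250 bases, annotated transcript included, CAGGAA or CCGGAA was found for 4 of the 8 genes (Kdr, Tek, Emcn and Tie1). Searched in the same way, 35.1% of all 32851 promoters held either. With the bases that lie in an annotated exon of the gene removed, the window of Kdr was 247 bases long and held 1 match, that of Tek held 2 and that of Emcn 2. The window of Tie1 was then 38 bases long and held 0. Those of Flt1, Cldn5, Mfsd2a and Eng held 0 of these exact letters, whole or so shortened. The shares that follow are again of whole windows. The window of Mfsd2a overlaps an exon of the noncoding gene 4933421A08Rik. All motifs were searched on both strands. The SOX motif ACAATG and the GATA motif AGATAA were upstream of 0 of the 8 genes, against 10.7% and 9.99% of all promoters. The motif CTTTGA of the TCF/LEF factors, through which Wnt signals act, was upstream of 1 of the 8, against 13.8% of all. The TATA box TATAAA was upstream of 1 (12.4% of all), the CCAAT box CCAAT of 2 (33.8%) and the GC box GGGCGG of 3 (32.7%). A match describes the letters of a window and not a site in use.

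The 10 genes differed widely in level. On the scale of CPM per kilobase of exon, averaged over the 4 libraries, Cldn5 was the highest at 16.1 and ranged from 13.8 to 17.1. Cldn5 encodes claudin-5, the main tight junction protein of brain endothelium. Mfsd2a, which encodes a transporter of docosahexaenoic acid bound to lysolipid, averaged 14.9 on the same scale and ranged from 14.4 to 15.7. The ranges of these 2 barrier genes overlapped, so their order was not resolved. Eng followed at 7.82, with a range from 6.05 to 10.3 that met neither neighbour. Esam (4.93), Tie1 (4.35), Pecam1 (4.20) and Kdr (4.05) formed a group in which each range overlapped the next. Tek (1.61), Flt1 (1.45) and Emcn (0.799) were the lowest, again with overlapping ranges. Among all genes tested, 77.6% had a lower mean level per length than Cldn5, 45.0% a lower one than Kdr and 17.7% a lower one than Emcn. Exon length here is that of all annotated exons of a gene merged, which for Flt1 (13504 bases) includes exons of several isoforms.

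**Figure D1:**
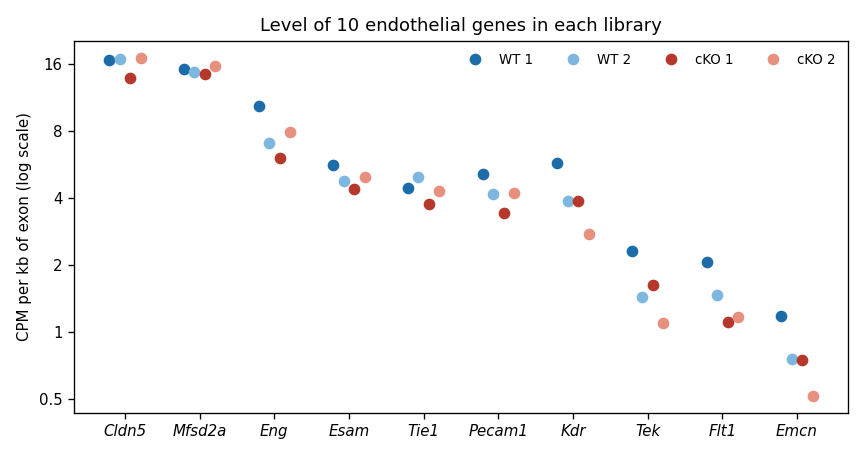
Level of each of the 10 endothelial genes in each of the 4 libraries, as TMM-scaled CPM per kilobase of merged exon on a logarithmic axis; each point is 1 library. Cldn5 and Mfsd2a lay between 13.8 and 17.1 in every library, while Emcn did not exceed 1.18.

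Kdr and Flt1 encode the VEGF receptors of endothelium. Kdr (VEGFR2) carries the growth signal, and Flt1 (VEGFR1) binds VEGF-A tightly but signals weakly and limits the amount that reaches Kdr. Kdr (ENSMUSG00000062960, GRCm38) spans chromosome 5 from 75932827 to 75978458, minus strand. WT 1 held 902 of its reads, WT 2 held 644, cKO 1 held 638 and cKO 2 held 444. WT 1 was the highest and cKO 2 the lowest, and WT 2 and cKO 1 were nearly equal. After scaling by edgeR's TMM method, the level was 43.4 ± 11.9 CPM in WT (SD, n = 2) and 29.8 ± 7.07 CPM in cKO (SD, n = 2). On the log2 scale cKO over WT was -0.54, with a standard error (SE) of 0.25, a 95% interval from -1.11 to 0.04 and an unadjusted p of 0.0623 in edgeR's quasi-likelihood test. The groups were parted only by the scaling, at 34.9 CPM in WT 2 and 34.8 CPM in cKO 1, and overlapped without TMM. Counting error was small beside this spread: the ratio of cKO to WT reads was 0.689, and its exact 95% interval (Clopper-Pearson) ran from 0.637 to 0.745, for counting error alone.

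Flt1 (ENSMUSG00000029648, chromosome 5 from 147561604 to 147726011, minus strand) had the lowest log2 fold change of the 10 genes. It was read 484 times in WT 1, 366 times in WT 2, 274 times in cKO 1 and 281 times in cKO 2. The libraries labelled cKO were nearly equal, and both lay below both labelled WT, with and without TMM. The level was 23.8 ± 5.61 CPM in WT (SD, n = 2) and 15.3 ± 0.533 CPM in cKO (SD, n = 2). Between the groups this made -0.64 on the log2 scale (SE 0.22), with a 95% interval from -1.15 to -0.12. edgeR's quasi-likelihood test gave an unadjusted p of 0.0217, which became 0.9999 after adjustment for every gene tested. Without WT 1 the log2 fold change was -0.37 (unadjusted p of 0.305 in the same test). A count per gene adds the membrane-bound and the soluble form of Flt1, which were not separated here.

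Tek and Tie1 encode the Tie receptors. Tek (Tie2) binds the angiopoietins, and Tie1 binds none of them directly but pairs with Tek and modulates it. Tek (chromosome 4 from 94739289 to 94874976, plus strand) was read 189 times in WT 1, 125 times in WT 2, 140 times in cKO 1 and 92 times in cKO 2, so that the groups overlapped. Its log2 fold change came to -0.46 (SE 0.33, 95% interval from -1.23 to 0.31). Tie1 (chromosome 4 from 118471191 to 118490061, minus strand) was read 377 times in WT 1, 449 times in WT 2, 337 times in cKO 1 and 377 times in cKO 2. It was the only gene of the 10 that was highest in WT 2. After scaling, cKO 1 and cKO 2 were each below both WT libraries, at 21.1 CPM in cKO 2 against 21.6 CPM in WT 1. Its log2 fold change came to -0.22 (SE 0.19, 95% interval from -0.67 to 0.22). The 2 receptors did not keep one ratio across libraries: per read of Tek, WT 1 held 1.99 reads of Tie1, WT 2 held 3.59, cKO 1 held 2.41 and cKO 2 held 4.10.

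Emcn and Eng encode other proteins of the endothelial surface. Endomucin (Emcn) is a sialomucin of capillaries and veins, and endoglin (Eng) is a co-receptor for ligands of the TGF-β family. Emcn (chromosome 3 from 137341067 to 137432185, plus strand) had the fewest reads of the 10 genes, with 111 for WT 1, 75 for WT 2, 74 for cKO 1 and 50 for cKO 2. Its order over the libraries was the same as that of Kdr, and its groups too were parted only by the scaling. Its log2 fold change came to -0.61 with the widest interval of the list, from -1.45 to 0.23 (SE 0.37). Eng (chromosome 2 from 32646595 to 32682669, plus strand) was read 727 times in WT 1, 526 times in WT 2, 449 times in cKO 1 and 569 times in cKO 2, and the groups overlapped. For Eng the log2 fold change came to -0.32 (SE 0.24, 95% interval from -0.87 to 0.23), and -0.02 without WT 1. An exon of Fpgs on the other strand overlaps Eng, and the strand used in counting was not given in the sources used here, so the reads of Eng are uncertain to that extent.

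Pecam1, Cldn5 and Esam encode proteins of the contacts between endothelial cells. Pecam1 (CD31) is an adhesion molecule that all endothelium carries, claudin-5 seals the tight junction, and Esam is an adhesion molecule at the same junction. Pecam1 (chromosome 11 from 106654217 to 106750628, minus strand) was read 552 times in WT 1, 475 times in WT 2, 388 times in cKO 1 and 467 times in cKO 2. Cldn5 (chromosome 16 from 18776847 to 18778260, plus strand) was read 409, 439, 357 and 432 times in the same order, and cKO 1 alone stood lower. Esam (chromosome 9 from 37528078 to 37538319, plus strand) was read 280, 252, 230 and 255 times in that order. In all 3 genes cKO 1 was the lowest library after scaling and cKO 2 lay within or above the range of WT. Their log2 fold changes were -0.28 for Pecam1 (95% interval from -0.75 to 0.19), -0.12 for Cldn5 (from -0.56 to 0.33) and -0.15 for Esam (from -0.65 to 0.35).

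Mfsd2a, which also restrains vesicle transport across brain endothelium, was the steadiest of the 10 genes. It spans chromosome 4 from 122946850 to 122961188, minus strand. WT 1 held 591 of its reads, WT 2 held 608, cKO 1 held 593 and cKO 2 held 631. The level was 33.5 ± 0.676 CPM in WT (SD, n = 2) and 33.8 ± 2.06 CPM in cKO (SD, n = 2), and the groups overlapped. The difference on the log2 scale was 0.02 (SE 0.17), and the 95% interval of the ratio of cKO to WT ran from 0.772 to 1.32. Set against this gene, WT 1 held 1.53 reads of Kdr per read of Mfsd2a, WT 2 held 1.06, cKO 1 held 1.08 and cKO 2 held 0.704. Reads of Flt1 numbered 0.819, 0.602, 0.462 and 0.445 per read of Mfsd2a in the same order. These ratios do not depend on the depth of a library, but reads also varied with exon length in some libraries. Kdr (9030 bases) and Flt1 (13504) are among the 2398 genes with the longest merged exons, and Mfsd2a (2250) among the 2400 with the shortest. On the log2 scale, relative to each gene's mean, these longest genes had a median of 0.10 in cKO 1 and -0.14 in cKO 2. The shortest had -0.09 and 0.17. The VEGF receptors did not keep a constant proportion to Mfsd2a over the 4 libraries, and the part of exon length in this was not tested.

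**Figure D2:**
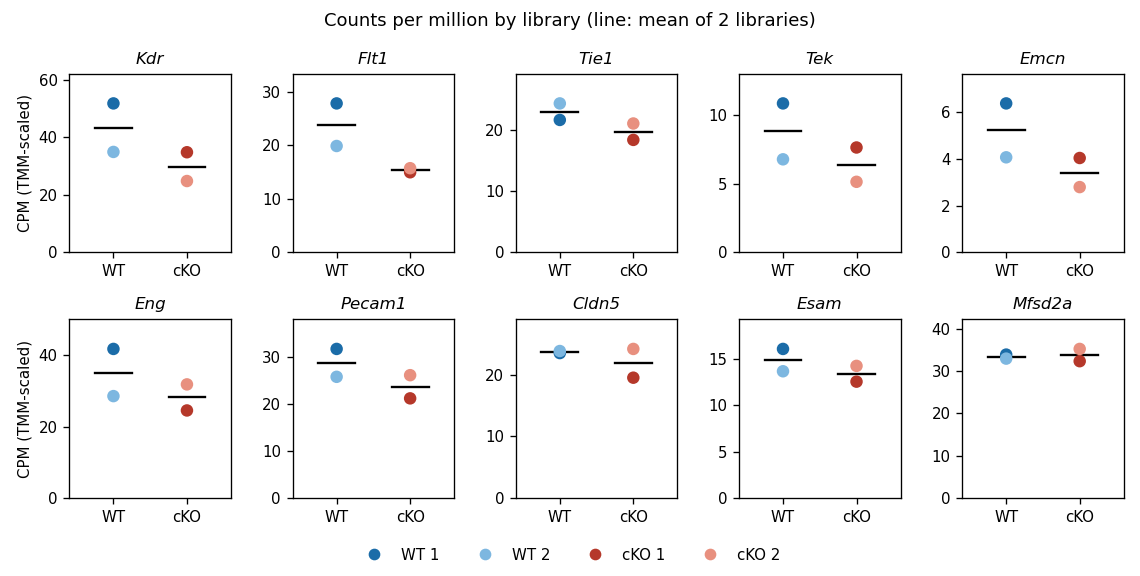
TMM-scaled CPM of each of the 10 genes in WT and cKO, each point 1 library and each line the mean of the 2 libraries of a group; the vertical axes start at 0 and differ between genes. Flt1 had both cKO libraries at 14.9 and 15.7 CPM, below 19.9 and 27.8 CPM in WT, while the points of Mfsd2a lay between 32.4 and 35.3 CPM.

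Of the 10 genes, 0 were called at the thresholds of the study's methods, a change of 2-fold or more together with an unadjusted p up to 0.05, in edgeR's fit. Across all 16145 genes tested, 0.811% were called in either direction and 0.669% were called lower in cKO. With an unadjusted p under 0.05 there was 1 gene of the 10, Flt1, both with edgeR and with DESeq2 (unadjusted p of 0.0236 in DESeq2's Wald test), against 1.23% of all genes in edgeR's fit. The adjusted p was 0.9999 for each of the 10 genes with Benjamini-Hochberg adjustment over all genes in that fit. After scaling, neither cKO library reached the lower WT library in 4 of the 10 genes (Kdr, Flt1, Tie1 and Emcn), against 10.8% of all genes tested. Without TMM this held for 2 of the 10, Flt1 and Tie1, and the share of all genes was not computed. The log2 fold change was below 0 in 9 of the 10 genes, all but Mfsd2a, and in 52.1% of all genes. Its median over the 10 genes was -0.30 and its median over all genes tested -0.01. The intervals leave a 2-fold decrease possible for 4 genes (Kdr, Flt1, Tek and Emcn) and do not reach it for the other 6, and a 2-fold increase lay outside all 10 intervals.

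The size of the difference between the labels depended on single libraries. WT 1 had the highest level in 7 of the 10 genes, and cKO 1 the lowest in 7. In 8 of the 10 genes, all but Flt1 and Tie1, the larger of the 2 differences within a label exceeded the fold change between the labels. Taking the larger one favours this outcome, and its share over all genes was not computed. With WT 1 left out, the median log2 fold change of the 10 genes was -0.13, and that of Kdr -0.23, of Tek -0.09 and of Emcn -0.25. With cKO 1 left out the median was -0.14, and Kdr was at -0.80. With cKO 2 left out Kdr was at -0.30, Tek at -0.19, Emcn at -0.35 and Flt1 at -0.66. With WT 2 left out the median was -0.48, with Kdr at -0.78, Tek at -0.75, Emcn at -0.89 and Flt1 at -0.85. All but Cldn5 and Mfsd2a were below 0 in each of the 4 fits that left out a library.

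**Figure D3:**
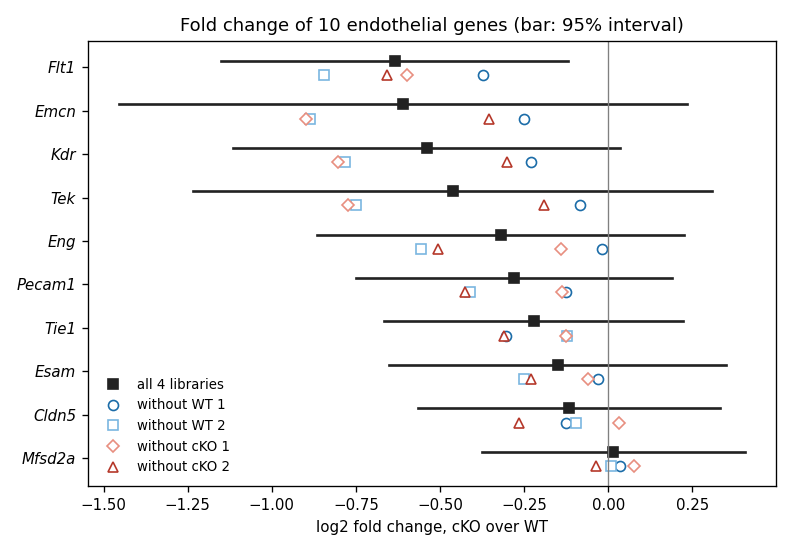
Log2 fold change of cKO over WT for each of the 10 genes in the fit of all 4 libraries (filled squares, with 95% intervals as bars) and without WT 1 (circles), WT 2 (open squares), cKO 1 (diamonds) or cKO 2 (triangles). The interval of Flt1, from -1.15 to -0.12, was the only one that did not cover 0, and without WT 1 the other values lay between -0.30 and 0.04.

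The 10 genes fell into several patterns over the 4 libraries, described here without a test. Kdr, Tek and Emcn were each highest in WT 1, within 0.11 of their mean on the log2 scale in WT 2 and cKO 1, and lowest in cKO 2, where they lay from 0.51 to 0.57 below it. Eng, Pecam1 and Esam were also highest in WT 1, but lowest in cKO 1, and in cKO 2 they lay within 0.04 of their mean. Cldn5 departed from its mean mainly in cKO 1, by -0.22, and Mfsd2a by no more than 0.07 in any library. Reads in cKO 2 also varied with exon length over all genes. The fifth of genes with the longest merged exons had a median of -0.14 in cKO 2 on this scale, against 0.17 for the fifth with the shortest. Kdr (9030 bases) and Flt1 (13504 bases) are among these longest genes, while Tek (4712) and Emcn (5409) are in the fifth in the middle, whose median in cKO 2 was 0.03. An alternative added after the values were seen used offsets that remove each library's trend with exon length. With them the log2 fold change was -0.52 for Kdr, -0.46 for Tek and -0.60 for Emcn. For Flt1 it was -0.57 (unadjusted p of 0.0460 in edgeR's test). In cKO 1 the trend was the reverse of that in cKO 2, with medians of 0.10 for the longest genes and -0.09 for the shortest. Between the labels the longest genes had a median log2 fold change of only -0.05, so the offsets could change the fold changes of such genes little. The shortest genes, Cldn5 and Mfsd2a among them, had a median of 0.08. With the offsets Cldn5 went from -0.12 to -0.21 and Mfsd2a from 0.02 to -0.04. The part of exon length in the low value of Kdr in cKO 2 was not tested.

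A second list of 24 genes known from endothelium, such as Cdh5, Erg, Sox17, Robo4 and Cd34, was read beside the 10. All 24 were tested, and all had a log2 fold change below 0, from -1.12 to -0.02 with a median of -0.31. WT 1 was the highest library for 19 of them and cKO 1 the lowest for 14. With WT 1 left out, 13 of the 24 were below 0 and their median was -0.07. With cKO 1 left out, 16 of the 24 were below 0, with a median of -0.15. Of the 24, 1 gene was called lower in cKO, against 0.669% of all genes tested. Clec14a, a C-type lectin-like protein of endothelium, was read 147 times in WT 1, 84 times in WT 2, 62 times in cKO 1 and 46 times in cKO 2, at a log2 fold change of -1.12 (SE 0.39) with an unadjusted p of 0.0196 and an adjusted p of 0.9999 in edgeR's test. It was no longer called without WT 1 (-0.61) or without cKO 2 (-0.93). Cdh5, the VE-cadherin of endothelial junctions and named after its values were seen, was read 672, 465, 403 and 394 times in the same order, at a log2 fold change of -0.54 (SE 0.23, unadjusted p of 0.0498 in edgeR's test). For Cdh5 the unadjusted p was 0.0511 with DESeq2's Wald test, and without WT 1 the log2 fold change was -0.20. S1pr1, the most abundant of the list and a receptor for sphingosine 1-phosphate, was read 640, 569, 599 and 556 times in the same order, at a log2 fold change of -0.08.

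Among 9 genes of VEGF ligands, co-receptors and a receptor phosphatase, 0 were called in edgeR's fit, 0 had an unadjusted p under 0.05, and 4 were below 0. The other 5 were above 0, up to 0.59, and the median of the 9 was 0.01. Each gene named here is one of those below 0. Vegfa, the ligand of Kdr and Flt1 and named after its values were seen, was read 2931 times in WT 1, 1662 times in WT 2, 1612 times in cKO 1 and 1801 times in cKO 2. WT 1 alone stood high. For Vegfa the log2 fold change came to -0.45 (SE 0.27), and 0.07 without WT 1. Nrp2, a neuropilin that also serves axon guidance, was the most abundant, with a log2 fold change of -0.28 (SE 0.15). Ptprb, the phosphatase VE-PTP that restrains Tek and Kdr, was read 196, 131, 119 and 95 times in the same order, at a log2 fold change of -0.64 (SE 0.31), and -0.27 without WT 1.

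Of 5 genes around the angiopoietins, 4 passed the filter on low counts and all 4 were below 0. Angpt2, the angiopoietin that endothelial cells release at sprouting vessels, was called lower in cKO. It was read 59 times in WT 1, 43 times in WT 2, 30 times in cKO 1 and 15 times in cKO 2, and the groups did not overlap. For Angpt2 the log2 fold change came to -1.20 (SE 0.47), with an unadjusted p of 0.0321 and an adjusted p of 0.9999 in edgeR's test. Angpt2 was no longer called without WT 1 (-0.91), without cKO 2 (-0.79) or with DESeq2 (-1.20, unadjusted p of 0.0665 in the Wald test). Angpt1, the activating ligand of Tek and named after its values were seen, had 111, 110 and 105 counts in WT 1, WT 2 and cKO 1 but 26 in cKO 2. Its log2 fold change came to -0.78 (SE 0.55), -0.09 without cKO 2, and -2.08 without cKO 1, where it passed the thresholds. Foxo1, a transcription factor restrained by Tek signalling, had a log2 fold change of -0.26 (SE 0.26).

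In the list around endoglin, 13 of 15 genes were tested, 10 were below 0, and 0 were called in edgeR's fit or had an unadjusted p under 0.05. Acvrl1, which encodes the ALK1 receptor that works with endoglin and was named after its values were seen, was read 216 times in WT 1, 133 times in WT 2, 98 times in cKO 1 and 138 times in cKO 2. Its order over the libraries was close to that of Eng. For Acvrl1 the log2 fold change came to -0.59 (SE 0.34), and -0.14 without WT 1. Id3, a target of BMP signals in many cells, was read 444, 230, 170 and 262 times in the same order, at a log2 fold change of -0.67 (SE 0.37). It was at -0.06 without WT 1, and it passed the thresholds without WT 2 (-1.08) and without cKO 2 (-1.02). Smad5, the most abundant of the list and not restricted to endothelium, had a log2 fold change of 0.06 (SE 0.16).

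The genes of barrier formation were read in a pair of lists. Among 16 genes of the Wnt pathway that induces the barrier, 11 were below 0 and 0 were called in edgeR's fit, where 2 had an unadjusted p under 0.05. The largest difference was that of Adgra2, the receptor GPR124 through which endothelium responds to Wnt7 ligands. It was read 393 times in WT 1, 266 times in WT 2, 199 times in cKO 1 and 233 times in cKO 2, at a log2 fold change of -0.63 (SE 0.27, unadjusted p of 0.0452 in edgeR's test) that was -0.27 without WT 1. Ctnnb1, the beta-catenin of all cells and the most abundant of the list, had a log2 fold change of 0.07 (SE 0.16). Among 19 genes of barrier junctions and transport, 18 were tested, 14 were below 0 and 1 was called. This was Ocln, the tight junction protein occludin, read 43 times in WT 1, 26 times in WT 2, 9 times in cKO 1 and 19 times in cKO 2, at a log2 fold change of -1.31 (SE 0.55). Ocln was no longer called without WT 1 (-0.86), without cKO 1 (-0.86) or with DESeq2 (-1.31). Slc2a1, the glucose transporter GLUT1 of barrier endothelium, which other cells also use and which was named after its values were seen, was read 2236, 1579, 1488 and 1954 times in the same order, at a log2 fold change of -0.17 (SE 0.23). Slc7a5, an amino acid transporter, had a log2 fold change of -0.11 (SE 0.16).

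Of 19 genes of sprouting tips, arteries and veins, 17 were tested, 13 were below 0 and 1 was called. Gja5, the connexin 40 of arterial endothelium, was read 38 times in WT 1, 27 times in WT 2, 16 times in cKO 1 and 14 times in cKO 2. Its log2 fold change came to -1.13 (SE 0.46, unadjusted p of 0.0386 and adjusted p of 0.9999 in edgeR's test). Gja5 was no longer called with DESeq2 (-1.13), without WT 1 (-0.82), without cKO 1 (-1.21) or without cKO 2 (-1.04). Efnb2, an ephrin of arteries that neural cells also make in quantity, had a log2 fold change of -0.03 (SE 0.21).

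Markers of other cells that come with vessels or surround the brain were also highest in WT 1. The 10 endothelial genes summed to 265 CPM for WT 1, 215 for WT 2, 190 for cKO 1 and 201 for cKO 2. The 13 mural cell genes summed to 287, 210, 220 and 236 CPM in the same order, the 12 microglia and macrophage genes to 65.6, 46.8, 43.4 and 49.6 CPM, and the 12 genes of red blood cells to 1093, 594, 478 and 730 CPM. WT 1 exceeded every other library in each of these lists. The 13 genes of the meninges, the connective tissue that carries the surface vessels, summed to 321, 61.2, 86.8 and 47.3 CPM in the same order. Of the 9 meningeal genes tested, all had a log2 fold change below 0, with a median of -1.49, and 2 were called lower in cKO, Col1a1 and Col1a2, neither of which was called with DESeq2 (-2.07 and -1.58). Without WT 1 their log2 fold changes were -0.11 and 0.21, and that of the more abundant Col3a1 was 0.13 (-1.29 with all libraries). The part of meningeal tissue or of blood in the endothelial values was not tested.

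Among the mural genes 9 of the 12 tested were below 0 and 1 was called, Acta2, the smooth muscle actin, with 59 counts in WT 1 against 14, 12 and 11 in WT 2, cKO 1 and cKO 2. Acta2 was no longer called with DESeq2 (-1.69), without WT 1 (-0.26), without cKO 1 (-1.73) or without cKO 2 (-1.63). Notch3, a receptor of mural cells that progenitors also use and the most abundant of that list, had a log2 fold change of 0.13 (SE 0.16). Of the 12 microglia genes 11 were below 0, and of the 12 genes of red blood cells 10, and neither list had a gene called (0) or with an unadjusted p under 0.05 (0) in edgeR's fit. Csf1r, a receptor that microglia depend on, had a log2 fold change of -0.47 (SE 0.25), and -0.19 without WT 1. Mrc1, of macrophages outside the neural tissue, was at -1.28 (SE 0.58), and at -0.13 without WT 1. With DESeq2 Mrc1 was at -1.27 and passed the thresholds (unadjusted p of 0.0454 in the Wald test). The embryonic globin Hbb-y had a log2 fold change of -0.68 (SE 0.40), and 0.17 without WT 1. In 3 genes of choroid plexus that could be tested, Htr2c, Aqp1 and Otx2, the log2 fold change ran from -3.44 to -1.33, and all 3 were called lower. Without WT 1 none was called, with Htr2c at -1.66, Aqp1 at -0.67 and Otx2 at -0.31. By contrast, 10 genes of cortical progenitors had a median log2 fold change of 0.05 and 10 of neurons a median of 0.02, with 0 called in either list in edgeR's fit and 0 with an unadjusted p under 0.05. Vim and Nes, of progenitors, had log2 fold changes of 0.07 and 0.17, and Tubb3 and Dcx, of neurons, of 0.05 and -0.30.

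**Figure D4:**
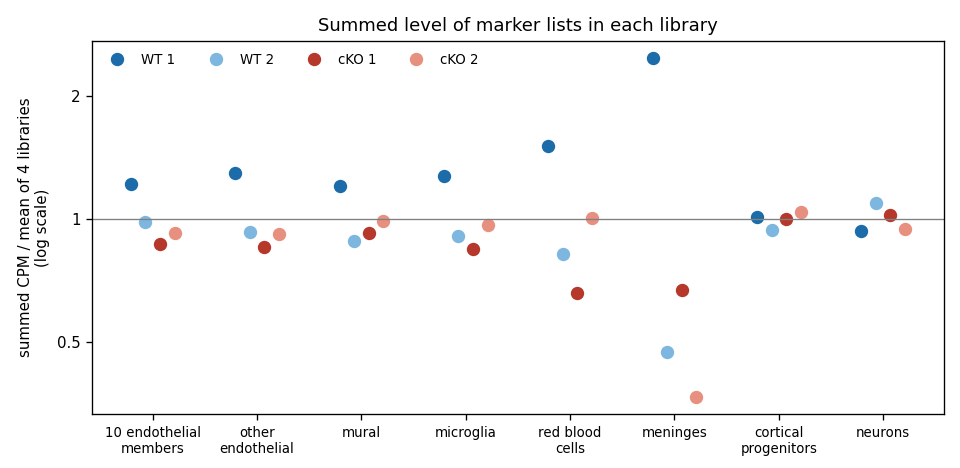
Summed TMM-scaled CPM of each marker list in each library, divided by the mean of the 4 libraries, on a logarithmic axis; each point is 1 library. WT 1 was the highest library for the endothelial, mural, microglia, red blood cell and meningeal lists, and the lists of progenitors and neurons stayed close to 1.

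Lymphatic vessels, which the brain itself lacks, were marked by 4 genes. Of these, Prox1 and Pdpn were tested, both of which neural cells also express, and their log2 fold changes were -0.24 (SE 0.19) and 0.11 (SE 0.18).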

How the data were processed

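Reads per gene were taken from the count table that the authors deposited for 4 E13 libraries. The counts were deposited without normalization. The submitters' processing notes name Bowtie2 2.2.3, TopHat2 2.0.12, HTSeq 0.6.0 and the build mm9, whereas 97.3% of 27232 gene positions in the table lie within 1 base of GENCODE M21 at one end, so positions were read as GRCm38. Strand, annotation release and pooling are not given in the sources used here. Of 27304 rows, 11 (0.0403%) were blank and were left out. A second deposited table repeats the counts of WT 1 and cKO 1 (identical for all 21342 shared genes) and was not used further. The authors' own fold changes and p-values, and their scaled values, were not used.

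Counts were scaled by TMM, filtered by filterByExpr and tested with edgeR 4.0.16 (quasi-likelihood, no covariate, R 4.3.3) over 16145 genes, with Benjamini-Hochberg adjustment over all of them. DESeq2 1.42.0 was an alternative. Standard errors were derived from the fit's unshrunken coefficient and its F statistic, and rest on 2 libraries per group. The 95% intervals are centred on that coefficient, whereas the log2 fold changes are edgeR's shrunken values. A count of 0 allows up to 3 counts, or 0.162 to 0.174 CPM. Intervals on counts cover counting error only. The script was tested on simulated counts. The members, lists and motifs were chosen with earlier results of these data known. From each list the text names the genes called, the most abundant tested gene and the one with the largest log2 fold change in size. One gene so named is not reported here. Cdh5, Vegfa, Angpt1, Acvrl1 and Slc2a1 were named after their values were seen.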

Additional observations from a re-analysis of the deposited data

How the results depend on the processing

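The count of the 10 endothelial genes called stayed at 0 under each alternative run except a fold change of at least 1.5. There it was 1 (Flt1), against 172 of the 16145 genes tested. Over all genes, 131 were called (108 lower and 23 higher in cKO). There were 405 when any gene with a read was kept (333 lower, 72 higher, more genes tested, 65 of them at an adjusted p under 0.05 in edgeR's fit), 72 when each library had to hold 10 reads of a gene (fewer tested), 82 with DESeq2 (72 lower, 10 higher), 14 at an unadjusted p of at most 0.01 and 0 at an adjusted p under 0.05 in edgeR's fit (199 at an unadjusted p under 0.05, and 0 with DESeq2). Leaving out 1 library gave from 104 (without WT 1, where 47 were lower and 57 higher) to 531 (without cKO 1). At an adjusted p under 0.05 edgeR's fit held 7 genes without WT 1, 116 without WT 2, 105 without cKO 1 and 0 without cKO 2. These fits assume that a lone library varies like the other group. The causes of the shifts with DESeq2 and with a library left out were not tested.

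Both groups use the numbers 1 and 2, and no source ties equal numbers to a litter or batch. Deviations of same-numbered libraries correlated at 0.108 over 16145 genes. With the replicate block 208 genes were called (176 lower, 32 higher, 5 at an adjusted p under 0.05 in edgeR's fit), 0 of the 10 among them. With the block 2 of the 10 had an unadjusted p under 0.05 in edgeR's fit, and the share of all genes was not computed. Angpt1 (-1.01), Mrc1 (-1.09) and Col3a1 (-1.06) passed the thresholds with the block and not without it.

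The median log2 fold change of the 10 genes (-0.30) ran from -0.48 to -0.13 with 1 library left out. The number below 0 (9) ran from 8 to 10. Of the 24 other endothelial genes, 13 to 24 were below 0, with the fewest without WT 1, and all 24 under the alternatives that kept 4 libraries. Of 40 values of the 10 genes with 1 library left out, 2 changed sign: Cldn5 (-0.27 to 0.032) and Mfsd2a (-0.035 to 0.078). Mfsd2a was also -0.038 with exon length offsets, where Tubb3 was -0.024. The other 69 of 70 values of the 10 genes kept their direction and stayed uncalled. Among the other genes named, these ran across 0 with 1 library left out: S1pr1 (-0.19 to 0.046), Foxo1 (-0.49 to 0.017), Smad5 (-0.093 to 0.22), Ctnnb1 (-0.04 to 0.19), Slc7a5 (-0.26 to 0.035), Efnb2 (-0.34 to 0.24), Col1a2 (-2.36 to 0.21), Col3a1 (-1.98 to 0.13), Hbb-y (-1.20 to 0.17), Tubb3 (-0.16 to 0.25), Dcx (-0.91 to 0.15), Pdpn (-0.024 to 0.26), Vegfa (-0.82 to 0.065) and Slc2a1 (-0.42 to 0.15).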
